A study of Caenorhabditis elegans with 17 samples.

Results

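The genes described here encode the proteins of the mitochondrial ribosome of *Caenorhabditis elegans*, measured as mRNA in oocytes. They were chosen by name alone, as every gene of the deposited table whose alias starts with *mrpl-* (large subunit) or *mrps-* (small subunit); the rule uses no measured value, although this family was picked with earlier results of these data known. The rule found 71 genes of 21459 in the table, 42 of the large and 29 of the small subunit. The study compared oocytes of wild-type hermaphrodites kept at 300 mM NaCl from the L4 larval stage to day 1 of adulthood (8 libraries) with oocytes of wild-type hermaphrodites of the same stage kept on control plates (9 libraries). Each condition carries 3 replicate numbers in the labels, with several lettered libraries under a number. The study's supplement describes a replicate as 3 oocytes of 1 animal and gives 3 replicates per condition. How the lettered libraries relate to these is not given in the sources used here. The maturing oocytes nearest the spermatheca were dissected from the gonad with a small amount of somatic gonadal sheath still attached, so the RNA is that of oocytes with some sheath cells. Total RNA was made into libraries with a stranded kit for very small inputs.

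The table gives 1 level for each gene, the authors' mean of normalized counts over the libraries they entered, and no value for a single library. It therefore shows how abundant each mRNA was in these samples, without a spread between replicates, and which libraries entered the mean is not given in the sources used here. The only columns that set 300 mM NaCl against control are the authors' own fold changes and tests, which were not used. No value is given here for the 300 mM NaCl and control oocytes apart, and no comparison between them was made. Because longer mRNAs give more reads, levels are compared between genes only as the mean normalized count per kilobase (kb) of exon. All comparisons between groups of genes are descriptions, with no test, since genes are not replicates. In such bulk samples, fewer cells of a type and less RNA per cell cannot be told apart.

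Mitochondria keep a small genome of their own, and a ribosome inside the organelle translates its mRNAs into core subunits of the respiratory chain and the ATP synthase. The rRNAs of that ribosome come from the mitochondrial genome, whereas its proteins are encoded in the nucleus, made in the cytosol and imported. Many of these proteins descend from those of the bacterial ancestor of mitochondria, and others were added during the evolution of the organelle. Oocytes pass on nearly all the mitochondria of the next generation. In worms, knockdown of *mrps-5* is known to lengthen life and to switch on the mitochondrial unfolded protein response.

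All 71 mRNAs had reads in these samples of oocytes with attached sheath, and most lay close to a common level. Their median was 263.2 mean normalized counts per kb of exon, with quartiles of 206.9 and 321.4 that lay 1.55-fold apart. Of the 71 genes, 67 (94.4%) were within 2-fold of that median. Before division by length, the means ran between 11.9 for *mrpl-46* and 746 for *mrps-30*, so every member had a mean of at least 10. Among the 21399 genes of the table with a known exon length, the median member stood above 80.9% of genes. In that ranking, 60 members were above at least 75% of genes and 68 were above the median gene. When genes whose mean was under 10 were left out of the ranking, the median member stood above 63.8% of genes, and 7 members were above at least 75% of them. Together the 71 genes took 0.383% of the summed mean counts of the table. The members thus formed a band of moderately abundant mRNAs with 4 genes well below it.

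**Figure D1:**
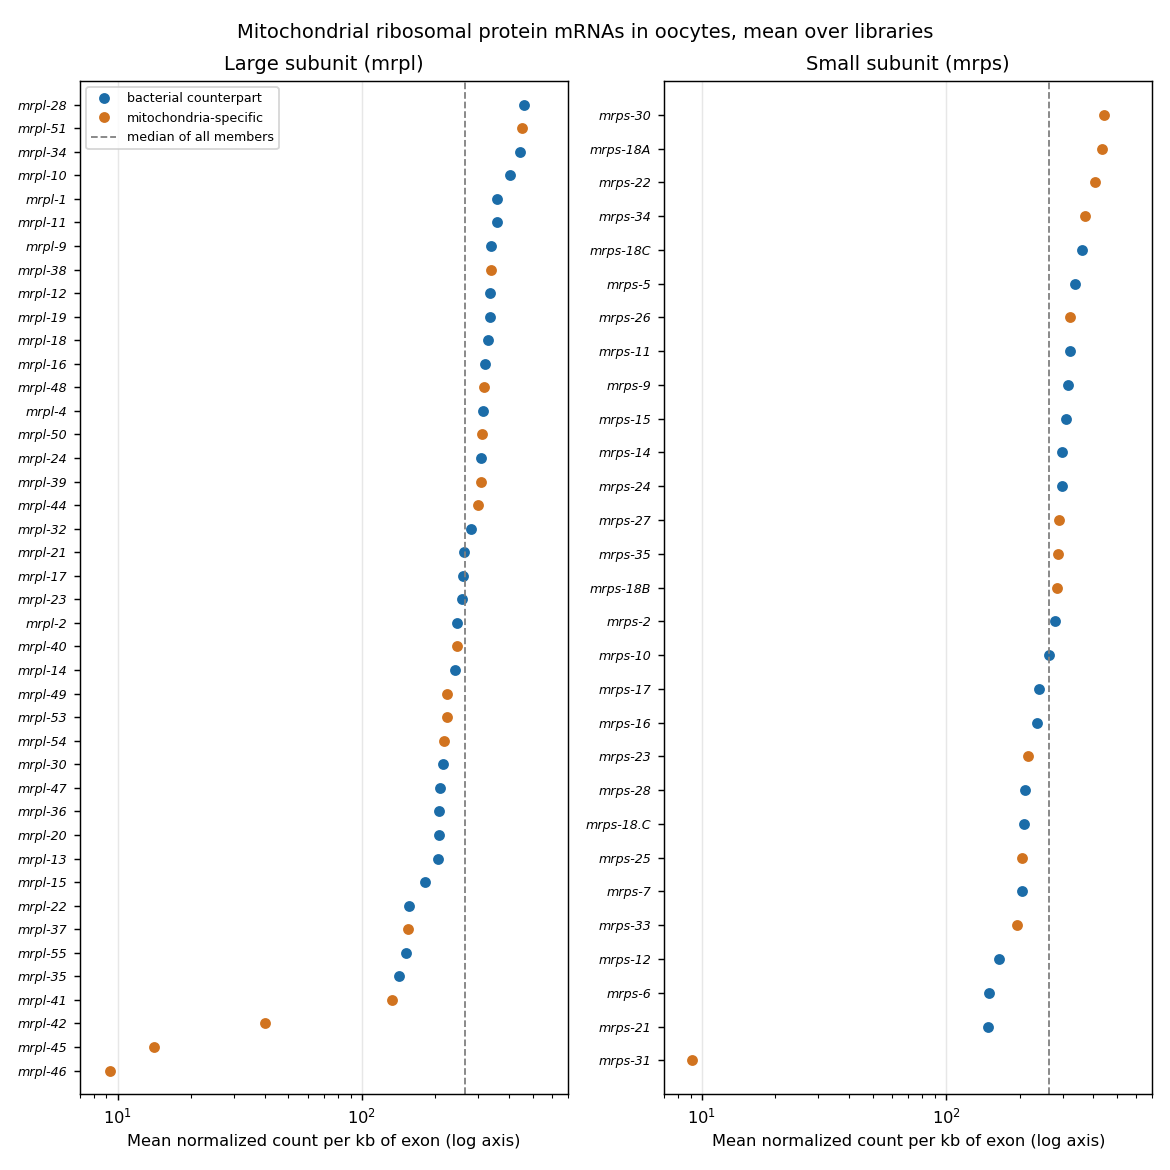
Mean normalized count per kb of exon (log axis, mean over libraries) of each of the 71 genes, large subunit on the left and small subunit on the right, ordered by level, with colour for proteins with a bacterial counterpart or mitochondria-specific proteins. The dashed line is the median of all members, 263.2; 67 genes lie within 2-fold of it, and *mrpl-42*, *mrpl-45*, *mrpl-46* and *mrps-31* lie far below.

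In the large subunit, which joins amino acids into protein, the median level was 258.1 per kb of exon (42 genes, 9.30 to 459.4). Per kb of exon, its most abundant mRNA, and that of all members, was *mrpl-28* (WBGene00020796, chromosome II, positions 154881 to 156009), at 459.4. It encodes a protein with a bacterial counterpart. Next came the mitochondria-specific *mrpl-51* (WBGene00011740, chromosome IV, 12031324 to 12032154) at 454.6 and *mrpl-34* (WBGene00007712, chromosome I, 10193242 to 10193999) at 443.6. The neighbouring values in this order differed by little, and without library values their order cannot be told from replicate error. The order also depended on the divisor. Per kb of coding length, *mrps-18A* (645.0), *mrps-26* (615.8), *mrpl-51* (556.7) and *mrpl-34* (518.7) were above *mrpl-28* (488.5).

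The proteins of the stalk, the arm of the large subunit that engages translation factors, were all in the upper part of the range. *mrpl-10* (WBGene00010458, chromosome II, 8277578 to 8278515), which anchors the stalk in bacteria, was at 403.2 per kb of exon. *mrpl-11*, at the stalk base, was at 356.0 and *mrpl-12*, whose human counterpart also binds the mitochondrial RNA polymerase, at 334.8. All 3 therefore exceeded the member median. *mrpl-1*, which in bacteria forms the mobile stalk on the other side of the subunit, was at 358.0 per kb of exon. Of the mitochondria-specific proteins with a fold borrowed from another family, *mrpl-44*, related to ribonuclease III, was at 299.8 and *mrpl-39*, related to threonyl-tRNA synthetase, at 306.2.

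At the low end of the large subunit, apart from the 4 genes described below, stood *mrpl-41* at 133.0 per kb of exon, *mrpl-35* at 141.6, *mrpl-55* at 152.0 and *mrpl-37* at 153.9. *mrpl-22*, whose bacterial counterpart lines the tunnel through which the new protein leaves, was just above them at 155.9. These 5 mRNAs lay at the lower edge of the band, with *mrpl-35*, *mrpl-55* and *mrpl-22* belonging to proteins that have a bacterial counterpart.

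In the small subunit, which binds the mRNA and reads its codons, the median level was 285.0 per kb of exon (29 genes, 9.16 to 441.5). The small-subunit median was 1.10-fold the large-subunit median, within a much wider spread of either subunit's genes. Per kb of exon, the highest gene was *mrps-30* (WBGene00044321, chromosome I, 10636692 to 10638966) at 441.5. It was followed by *mrps-18A* (WBGene00022583, chromosome III, 8330893 to 8331919) at 436.6. Despite their names, the human counterparts of both sit in the large subunit, and with both genes counted there the ratio of the subunit medians was 1.07. Next were the mitochondria-specific *mrps-22* (WBGene00007564, chromosome II, 10582618 to 10584236) at 406.1 and *mrps-34* (WBGene00010905, chromosome III, 4541420 to 4542452) at 369.2.

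*mrps-5* (WBGene00008452, chromosome V, 12563487 to 12565801), the gene best known for its effect on worm lifespan, was at 338.3 per kb of exon, above the median of its subunit. *mrps-12*, whose bacterial counterpart forms part of the decoding centre, was lower, at 165.4. The low end of the small subunit held *mrps-21* at 148.9 and *mrps-6* at 149.6, both with bacterial counterparts, and below them only *mrps-31*. The 3 genes named for protein S18 of the small subunit besides *mrps-18A* differed in level. *mrps-18C* on chromosome III was at 360.8, *mrps-18B* at 285.0, and a separate gene with the alias *mrps-18.C* on chromosome II at 207.7. Which of the near-identically named pair is the counterpart of human S18C is not settled by the sources used here. Their coding lengths differ, 1209 bases for *mrps-18C* and 417 bases for *mrps-18.C*.

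Origin was assigned only from the protein number in each gene name, with no sequence compared. By that rule *mrps-18C* and *mrps-18.C* both counted as having a bacterial counterpart, and *mrps-18A* and *mrps-18B* as mitochondria-specific. So sorted, the 44 genes for proteins with a bacterial counterpart had a median of 262.7 per kb of exon and the 27 mitochondria-specific genes one of 285.0. The 285.0 is the level of *mrps-18B* itself, a gene also named for S18. The order of the pooled medians thus depends on where the S18 genes are placed. With both subunits pooled, the quartiles lay 1.56-fold apart in the genes with a bacterial counterpart and 1.60-fold apart in the mitochondria-specific genes. Within each subunit, the quartiles of the mitochondria-specific genes lay further apart. In the large subunit they were 2.153-fold apart, against 1.608-fold for genes with a bacterial counterpart. In the small subunit the values were 1.772-fold and 1.497-fold. The sets also differed in their lowest genes, and none of these differences was tested. All 44 genes with a bacterial counterpart were within 2-fold of their own median, between 141.6 for *mrpl-35* and 459.4 for *mrpl-28*. Of the 27 mitochondria-specific genes, 22 were within 2-fold of theirs, the exceptions being the 4 lowest members and *mrpl-41*, and the range ran between 9.16 for *mrps-31* and 454.6 for *mrpl-51*. Within the large subunit, the 15 mitochondria-specific genes had a median of 222.9 and the 27 others one of 262.2. In the small subunit the order was turned round, with 289.2 for 12 mitochondria-specific genes and 263.2 for the 17 others. The 4 lowest members were all mitochondria-specific.

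These 4 genes stood apart from the other 67, which spanned only 3.46-fold (133.0 to 459.4, median 279.7). The next gene above them, *mrpl-41*, was 3.31-fold higher than *mrpl-42*. *mrps-31* (WBGene00007859, chromosome III, 3627234 to 3630372) had a mean normalized count of 19.8, or 9.16 per kb of exon, and the member median was 28.7-fold higher. *mrpl-46* (WBGene00021935, chromosome IV, 800818 to 804749), whose human counterpart belongs to the central protuberance of the large subunit, had a mean of 11.9, or 9.30 per kb of exon. *mrpl-45* (WBGene00022493, chromosome III, 1196389 to 1202008), whose mammalian counterpart sits at the tunnel exit and ties the ribosome to the inner membrane, had a mean of 30.2, or 14.1 per kb of exon. *mrpl-42* (WBGene00303009, chromosome IV, 9093563 to 9094456) had a mean of 28.3, or 40.1 per kb of exon. All 4 thus lay 6.56-fold to 28.7-fold below the median member. The 8 intestine markers, which mark tissue outside the dissected gonad, had a median of 24.2 per kb of exon. They ran between 4.48 for *ifb-2* and 74.4 for *vit-2*. Whether the reads of *mrps-31*, *mrpl-46* and *mrpl-45* came from oocytes was not tested.

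The annotated exons of these 4 genes hold much non-coding sequence, which enters the divisor. The non-coding exon bases numbered 1015 in *mrps-31*, 482 in *mrpl-46*, 1069 in *mrpl-45* and 379 in *mrpl-42*, against 84 in *mrpl-41*. Per kb of coding length instead, the 4 levels were 17.2 for *mrps-31*, 14.9 for *mrpl-46*, 28.2 for *mrpl-45* and 86.6 for *mrpl-42*. They remained the 4 lowest of the 71 members on that scale, below *mrpl-41* at 153.7. *mrpl-42* shares exon sequence with *lpl-1* on the same strand, a gene at 367.8 per kb of exon, and the other 3 overlap no annotated gene. How reads in shared exons were assigned is not given in the sources used here, and the part of gene models in these low values was not tested.

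Set beside a list of other nuclear genes for mitochondrial translation and gene expression, the mitochondrial ribosomal mRNAs had a similar median level per kb of exon. Their median of 263.2 per kb of exon stood beside 259.0 for 27 genes of mitochondrial translation factors, tRNA synthetases, ribosome assembly and the upkeep and transcription of mitochondrial DNA. The list's genes are longer, and before division by length the medians were 204.0 for the members and 424.4 for the list. In that list the lowest was *polg-1*, the mitochondrial DNA polymerase, at 84.0, and the highest *tufm-1*, a mitochondrial elongation factor Tu, at 645.2. It also holds *dap-3*, a small-subunit protein that the naming rule misses, at 264.6, and adding it to the members gave a median of 263.9.

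The members were lower than the nuclear genes of oxidative phosphorylation, the machinery that holds the products of the mitochondrial ribosome. That list of 47 genes, which by its naming rule includes assembly factors, had a median of 577.4 per kb of exon, 2.19-fold the member median. It ran between 5.09 for *cox-16*, an assembly factor of cytochrome c oxidase, and 1722 for *atp-1*, the alpha subunit of the ATP synthase. In it, 31 of 47 genes were above *mrpl-28*, the highest member per kb of exon.

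They were also lower than their cytosolic counterparts. The 81 genes for cytosolic ribosomal proteins had a median of 727.5 per kb of exon, 2.76-fold the member median, and 69 of them were above *mrpl-28*. The quartiles of the members lay 1.55-fold apart, those of the cytosolic list 1.43-fold and those of the oxidative phosphorylation list 1.99-fold. Those of the mitochondrial translation and assembly list also lay 1.55-fold apart. The cytosolic list also had genes far outside its band, from *rpl-42* at 9.19 to *rps-19* at 8117. As a share of the summed mean counts of the table, the members took 0.383% and the cytosolic ribosomal protein genes 0.870%.

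The mRNAs that the mitochondrial ribosome translates were more abundant still. The 12 protein-coding genes of the mitochondrial genome had a median of 1981 per kb of exon (1346 to 5804), 7.53-fold the member median, and each exceeded every member. The 2 mitochondrial rRNAs were at 481.8 and 941.8 per kb of exon, but these values depend on how rRNA was treated in the library preparation, and no comparison with the members is drawn. Over all 17713 protein-coding genes of the table the median was 17.7 per kb of exon, and for the 10562 of them whose mean reached 10 it was 146.1.

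**Figure D2:**
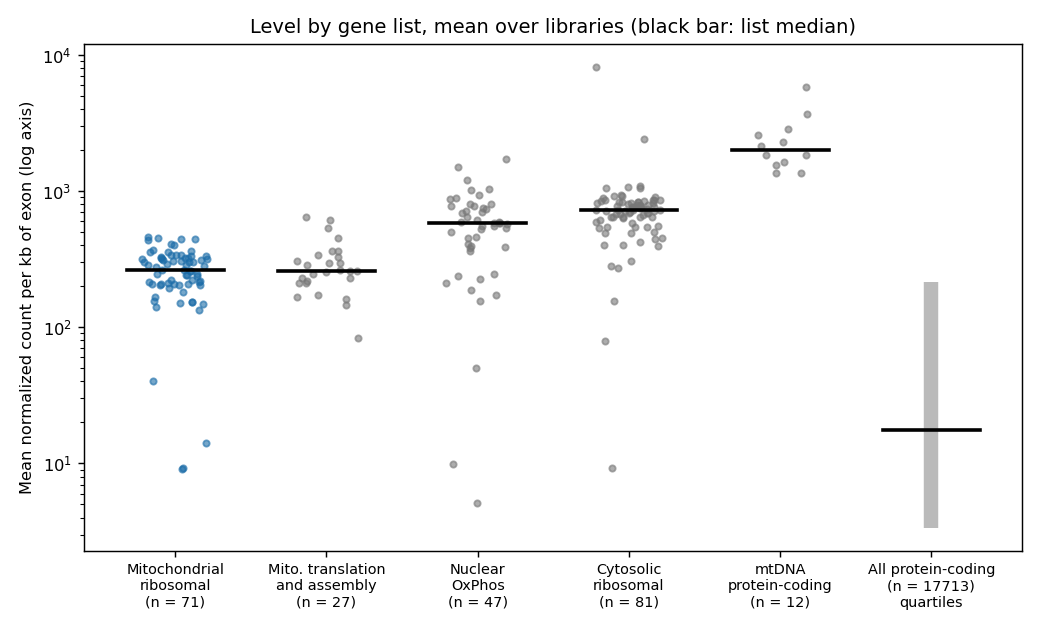
Mean normalized count per kb of exon (log axis, mean over libraries) of each gene in 5 lists, with the median as a black bar; for all protein-coding genes the grey bar spans the quartiles. The members (median 263.2) sit beside the translation and assembly list (259.0) and below nuclear OxPhos (oxidative phosphorylation, 577.4), cytosolic ribosomal (727.5) and mitochondrial DNA (mtDNA) genes (1981).

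The oocyte label was checked against marker genes, and oocyte markers had the highest median of the marker lists, 1474 per kb of exon. All 15 were at 457.4 per kb of exon or more (457.4 for *lin-41* to 3856 for *perm-2*). The 8 gonadal sheath markers ran between 22 for *plc-1* and 1117 for *inx-8*, a gap junction protein of sheath, with a median of 190.9. The 8 intestine markers were between 4.48 for *ifb-2* and 74.4 for *vit-2*, and the 34 sperm markers between 2.95 and 276.8 for *msp-40*, where the near-identical *msp* copies cannot be told apart with certainty. The members are not markers of any one of these cell types, and the share of each member's mRNA that came from sheath was not tested.

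The genes of the members were short and lay on 5 of the 6 chromosomes. Median exon length was 763 bases for the members and 1248 bases for protein-coding genes of the table, median coding length 597 and 1023 bases, and median exon number 4 and 6. *mrpl-54* was the 1 member with a single exon. Coding length ran between 231 bases for *mrpl-36* and 1569 bases for *mrps-30*. Within the members, longer genes tended to have more counts per kb: Spearman's rho between exon length and mean per kb was 0.34 and between coding length and mean per kb 0.42 (n = 71 genes, all measured in the same libraries and at the same depth), which is given as a description across genes.

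No member was on the X chromosome. That chromosome is largely silenced in the germ line for much of its development, and a link to this absence was not tested. In these samples, 1313 of the 2366 X-linked protein-coding genes listed had a mean of at least 10. The X-linked share was 13.4% of all protein-coding genes listed and 12.4% of those whose mean reached 10. Chromosome III held 22 of the 71 members (31%), against 14.2% of protein-coding genes and 18.2% of those whose mean reached 10. The other members were spread over chromosome I (15 genes), II (13), IV (11) and V (10). The median level by chromosome ranged between 204.1 per kb of exon on IV and 296.6 on V, with 270.9 on III.

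**Figure D3:**
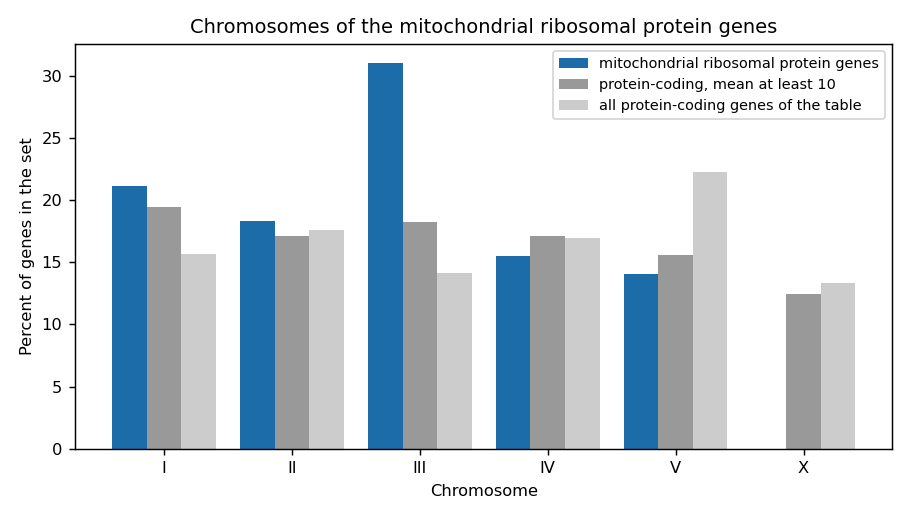
Percent of genes on each nuclear chromosome for the 71 members, for protein-coding genes whose mean reached 10 and for all protein-coding genes of the table. Chromosome III holds 31% of members against 18.2% and 14.2%, and X holds 0 members against 12.4% and 13.4%.

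Many members had a close neighbour on the same strand. In *C. elegans* such pairs with a short gap are often genes of one operon, transcribed together and then split by trans-splicing. An upstream same-strand neighbour within 500 bases was present for 26 of 71 members (36.6%), against 18.3% of protein-coding genes of the table and 20.7% of those whose mean reached 10. On either side, 42 members (59.2%) had one, against 31.9% and 36.5%, and 12 members had one on both sides. The upstream gap was between 80 and 120 bases for 18 members (25.4%), against 5.12% of protein-coding genes and 7.40% of those whose mean reached 10, a window chosen after the gaps were seen. Members with a close upstream neighbour had a median of 279.2 per kb of exon, and the 45 without one 259.7.

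In 54 pairs, a member and its neighbour within 500 bases (median gap 105 bases) were compared, with the pair of *mrps-2* and *mrpl-4* counted from each side. The member median was 261.0 per kb of exon and that of the neighbours 323.0, with the neighbour higher in 38 pairs and lower in 16. In 30 pairs the levels were within 2-fold. No other gene pairs were compared, so this count has no background share beside it. Across pairs, Spearman's rho was 0.14, as a description of pairs that share libraries and in part members. An operon listing was not used, so these pairs are neighbours by position only.

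Single pairs, chosen after their values were seen, illustrate the range. *mrpl-4* and *mrps-2* lie 105 bases apart on chromosome V, at 314.3 and 279.7 per kb of exon. *mrps-22* lies 105 bases downstream of *dap-3*, and their levels were 406.1 and 264.6. *mrps-5* lies 103 bases downstream of *sel-1*, which encodes a protein of endoplasmic reticulum-associated degradation, at 338.3 and 504.3. *mrpl-23* lies 95 bases downstream of *fars-1*, a cytosolic phenylalanyl-tRNA synthetase subunit, at 256.4 and 474.9. *mrpl-50* sits between *cct-2*, a subunit of the cytosolic chaperonin, 25 bases upstream, and *enol-1*, the glycolytic enolase, 56 bases downstream, with 311.5 for the member and 808.3 and 1169 for the neighbours. Among pairs in which the member was higher, the widest gaps in level were with *nhr-8*, *F56B3.9* and *ncr-2*: *mrps-24* was at 299.1 and *nhr-8* at 4.62, *mrpl-2* at 245.7 and *F56B3.9* at 5.67, and *mrps-9* at 315.6 and *ncr-2* at 18.9.

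The 4 low members also have close neighbours, and the neighbours were higher in all 4 pairs. Because these members were picked for their low levels, higher neighbours were likely in advance. *mrps-31* (9.16 per kb of exon) lies 91 bases upstream of *sel-8* (41.3) and *mrpl-46* (9.30) lies 352 bases upstream of *Y55F3BL.4* (72.1). *mrpl-45* (14.1) lies 96 bases upstream of *dss-1* (677.5), a proteasome-associated protein, and *mrpl-42* (40.1) lies 95 bases downstream of *icln-1* (411.4).

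**Figure D4:**
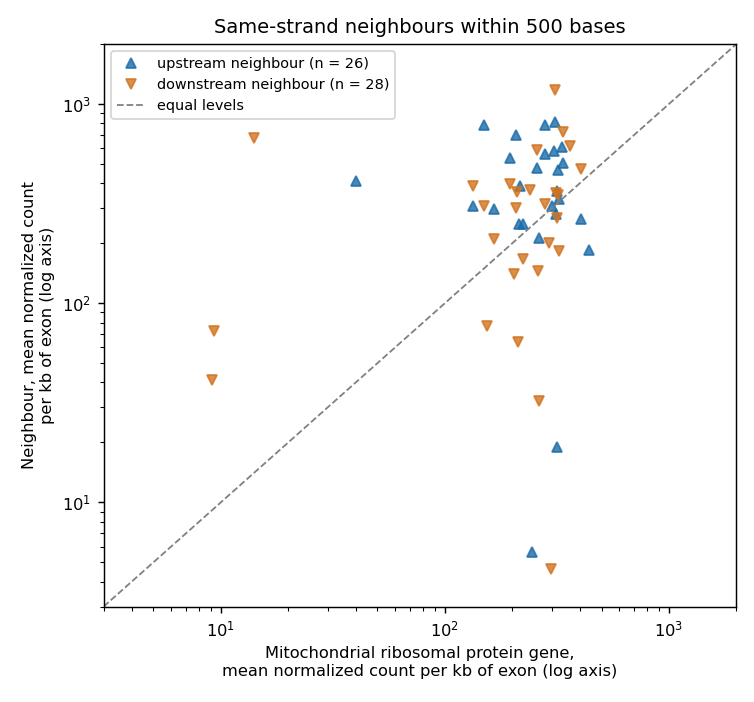
Level of each member (x axis) and of its same-strand neighbour within 500 bases (y axis), both as mean normalized count per kb of exon on log axes, with triangles up for upstream (n = 26) and down for downstream (n = 28) neighbours. The dashed line marks equal levels; 38 of 54 neighbours lie above it, and the 4 low members lie far to the left.

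Overlaps bear on the precision of single members. Exons of 21 members (29.6%) overlap another gene, 7 on the same strand and 14 on the opposite strand, against 30.6% of protein-coding genes. The median level was 306.2 per kb of exon for the 21 and 245.2 for the 50 without overlap. Among the members highest in level, *mrpl-28* overlaps *T25D3.3*, *mrpl-34* overlaps *aha-1*, *mrpl-10* overlaps *slc-25A32* and, somewhat lower, *mrpl-12* overlaps *W09D10.5* on the opposite strand, while *mrps-18A* overlaps *iglr-2* and *mrpl-1* overlaps *emc-6* on the same strand. The overlapping gene was at 52.5 per kb of exon for *T25D3.3*, 240.2 for *aha-1*, 483.4 for *slc-25A32*, 105.1 for *W09D10.5*, 313.1 for *iglr-2* and 302.3 for *emc-6*. Of these 6, only *slc-25A32* was above the member it overlaps. Among the lowest, *mrpl-35* overlaps *hmit-1.3* (25.9) on the opposite strand and *mrpl-42* overlaps *lpl-1* on the same. Whether the authors' counting used strand is not given in the sources used here, so the values of these genes carry that uncertainty.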

How the data were processed

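The table deposited by the authors holds, for each gene, a signal: the mean, over the libraries they entered, of counts divided by a library size factor. The authors aligned the reads to WBcel235, counted them with STARsolo and normalized the counts in DESeq2. Their methods state that genes with under 10 reads over all samples were removed; the lowest mean among genes with a length was 0.0308. The submitters' processing notes also name kallisto, and no versions are given. The table's other 5 columns hold the authors' 300 mM NaCl against control comparison (log2 fold change, its standard error, the Wald statistic, the p-value and the adjusted p-value) and were not used. With no library values, depth per library is unknown and the planned edgeR test was not run.

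Each mean was divided by the union exon length in kb (Ensembl release 115, WBcel235). Of 71 aliases, 70 equal the annotated name; *mrpl-14* is annotated as *F45E12.5*. Of 21459 genes, 60 had no length. A mean of at least 10 defined the stricter background. Genes named are the 10 highest and 10 lowest members, X-linked members, *mrps-5*, *mrpl-12* and *mrps-12*, the stalk list (*mrpl-10*, *mrpl-11*, *mrpl-12*) and the extremes of other lists; genes named beyond these were chosen after their values were seen. *mrpl-58* was not analysed here. The members and lists were chosen with earlier results of these data known. Of 38 names in the translation and assembly list 27 were found. The percentile and gap functions were tested on simulated data. Python 3.11.15, pandas 2.3.3 and scipy 1.17.1 were used. Whether counting used strand is not given in the sources used here.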

Additional observations from a re-analysis of the deposited data

How the results depend on the processing

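Of 18 alternatives, 17 stayed within 1.5-fold of the reported value. For 2 of these, members on autosomes and members with a mean of at least 10, all 71 genes were kept, so the median of 263.2 could not move. For the ratio of subunit medians, reported as 1.10, the 1.5-fold limit also takes in values below 1. That limit could not register a reversal of the ratio, so the range of the ratio is given below. The median percentile, a bounded measure, was 80.9 among all genes and 63.8 without genes whose mean was under 10. The exception was the number of members above at least 75% of genes, 60 when all genes were ranked and 7 when genes whose mean was under 10 were left out. The member median was 204.0 in counts without length scaling and 327.7 per kb of coding length. These units differ from counts per kb of exon, so their closeness to 263.2 is no measure of stability. The ratio of small-subunit to large-subunit medians ranged between 1.05 and 1.11. The share with a close upstream neighbour ranged between 29.6% at 300 bases and 46.5% at 1000 bases. Leaving out *mrpl-42*, *mrpl-45*, *mrpl-46* and *mrps-31*, an alternative chosen after seeing the data, gave a median of 279.7. No paired analysis was possible because the table holds no value for a single library; for the same reason no replicate was left out, no other count tool was run, and no replicate error stands beside any level.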
